A study of Mus musculus with 9 samples.

Results

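Bone marrow c-KIT+ cells that carried the CBFB-MYH11 fusion together with floxed Chd7 were compared with wild type cells across all genes, to find what stays abnormal and what is new when both lesions are present. The comparison used 6 libraries of the 9 in the series, 3 labelled Chd7f/f, Mx1-Cre, Cbfb+/56M (called KI_Chd7del) and 3 labelled WT. The other 3, labelled Mx1-Cre, Cbfb+/56M (called KI), served to tell which differences were already present with the fusion alone. All mice were of the strain C57BL/6, had received pIpC, and gave bone marrow cells selected on CD117, the c-KIT protein, with a positive selection kit. Mx1-Cre is a recombinase under an interferon-inducible promoter, switched on by the double-stranded RNA pIpC, and acts in many cell types besides blood stem cells. The WT label names no Mx1-Cre, so in KI_Chd7del against WT the effects of Cre, of the fusion and of Chd7 loss cannot be told apart. Whether each library of a group stands for another mouse is not in the labels, and the p-values are then about the spread among these libraries, which may be technical. The labels give neither the age and sex of the mice nor the time after pIpC.

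The core binding factor is a pair of proteins, a DNA-binding RUNX subunit and CBFβ, that is required for blood stem cells to arise and for their progeny to mature. CBFB-MYH11, made by inversion 16 in human acute myeloid leukaemia, joins CBFβ to the tail of smooth muscle myosin heavy chain and blocks the maturation of myeloid progenitors. CHD7 is an ATPase that slides nucleosomes, mainly known from CHARGE syndrome. In marrow, c-KIT marks stem cells, progenitors of all lineages and mast cells.

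Values are normalised read numbers per gene, scaled by library and rounded, and the test took 15997 of the 43629 genes in the table, those with a value of 10 or more in 3 libraries or more. Column totals were 43.2 to 46.2 M in WT, 37.5 to 38.1 M in KI_Chd7del and 37.7 to 39.0 M in KI. Transcripts of late neutrophil genes took 11.2% to 13.3% of a WT library, 4.05% to 5.23% of a KI_Chd7del library and 0.819% to 2.53% of a KI library. Mitochondrial transcripts took 1.53% to 1.62% in WT and 2.18% to 2.97% in KI_Chd7del. On the third principal component (5.28% of the variance) KI_Chd7del library 1 lay at 45.9 and the others of its group at -19.5 and -28.7, so results that rest on it are given with and without it. Each marker of the 11 cell types checked reached 10 in at least 1 library of each group, including those of neutrophils, B cells, T cells and stroma, which mature outside the c-KIT+ state. In bulk samples, fewer cells of a type and less RNA per cell cannot be told apart.

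The altered genes were read first. Chd7 had values of 3471, 3745 and 3982 in WT and 1862, 1794 and 1921 in KI_Chd7del, a log2 fold change of -1.004 (SE 0.14, adjusted p = 0.000374, limma). No KI_Chd7del library reached a WT value. The KI libraries held 1979, 2934 and 2009, and KI_Chd7del against KI was not resolved (log2 fold change -0.29, adjusted p = 0.121). A sum over the whole gene does not show whether floxed exons were lost, so it does not check the deletion. Myh11, the myosin partner of the fusion, had 8, 9 and 5 in WT, 187, 164 and 176 in KI_Chd7del and 219, 194 and 176 in KI. The groups that carry the fusion allele were far above WT and overlapped each other. Cbfb itself had a log2 fold change of -0.07 (adjusted p = 0.327), which became 0.18 (adjusted p = 0.0488) when columns were scaled to their totals. Kit, the selected receptor, had 7362, 7354 and 7797 in WT and 6131, 7732 and 8508 in KI_Chd7del, and these ranges overlapped (log2 fold change -0.02, adjusted p = 0.889). KI libraries held less, at 3868, 3226 and 3521. Xist, the RNA of the inactive X chromosome, had 8052, 9364 and 9049 in WT, 17810, 17987 and 16437 in KI_Chd7del and 18868, 35731 and 26325 in KI (log2 fold change against WT 0.98, SE 0.19, adjusted p = 0.00244), and the KI_Chd7del libraries lay above WT and below KI.

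Of the 15997 genes, 7735 (48.4%) differed between KI_Chd7del and WT at an adjusted p below 0.05 in limma, 3842 (24.0%) higher and 3893 (24.3%) lower. At least 2-fold changes were found for 2555 genes, 1588 higher (9.93%) and 967 lower (6.04%). For 57.6% of genes every KI_Chd7del library lay on 1 side of every WT library. The median log2 fold change over all genes was 0.02. Scaling to the column total moved that median to 0.26, and the higher share of the calls then rose from 49.7% to 78.7%. With late neutrophil genes left out of the total the values were 0.14 and 65.8%.

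The 2555 genes were divided by what they did in KI, a division by rule in which both contrasts share the WT libraries and from which nothing further was tested. Most were kept: 1908 genes (11.9% of all tested) had changed at least 2-fold in the same direction in KI_Chd7del and in KI, 1205 higher (7.53%) and 703 lower (4.39%). Of these, 805 (5.03% of all tested) lay within 1.5-fold of KI, and 785 (4.91%) lay at least 1.5-fold nearer to WT than KI with an adjusted p below 0.05. By the same rule 63 (0.394%) lay further from WT than KI, and 255 (1.59%) met none of these rules. New genes numbered 161 (1.01%), 97 higher (0.606%) and 64 lower (0.400%), changed at least 2-fold against WT and against KI while KI stayed within 1.5-fold of WT. A further 14 genes (0.0875%) had changed in the opposite direction to KI, 1 higher than WT (0.00625%) and 13 lower (0.0813%). Another 472 genes (2.95%) met none of the class rules. For scale, 705 genes (4.41%) changed at least 2-fold in KI were within 1.5-fold of WT in KI_Chd7del.

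**Figure D1:**
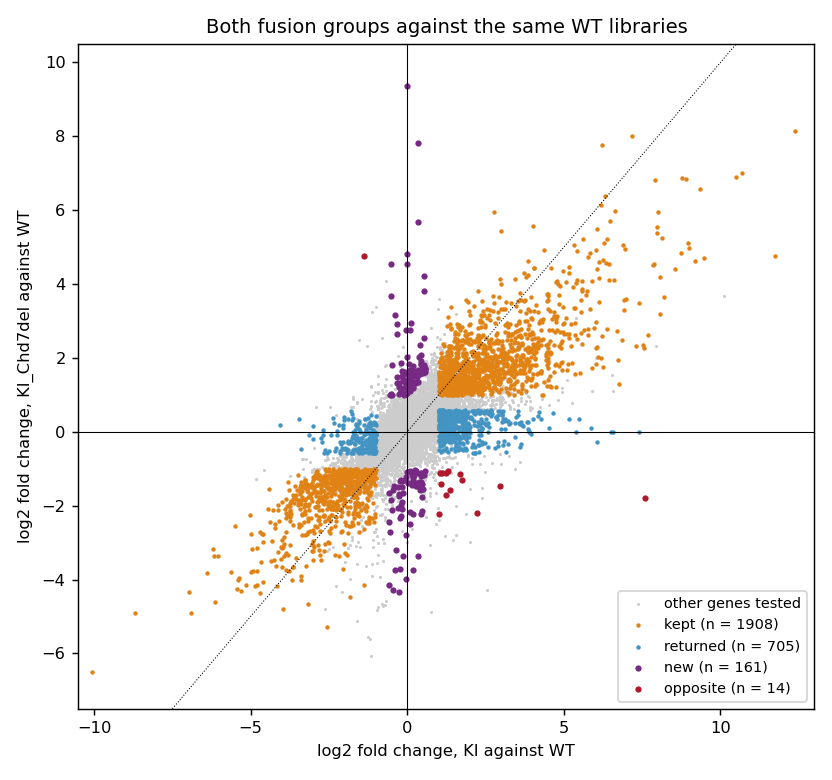
Each point is 1 of the 15997 genes tested, by its log2 fold change in KI against WT (x axis) and in KI_Chd7del against WT (y axis), both taken from the same WT libraries; the dotted line marks equal change. The 1908 kept genes lie in the quadrants where both changes have 1 sign, the 161 new genes lie close to the vertical axis, and the 705 returned genes lie close to the horizontal axis.

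Among genes that averaged at least 200 in 1 of the groups, the largest increases were of genes at or near 0 in WT cells. Podxl, a sialomucin related to CD34, had 39, 47 and 48 in WT and 9988, 6375 and 2393 in KI_Chd7del (log2 fold change 6.88, SE 0.43, adjusted p = 7.52e-06). Grhl2, an epithelial transcription factor, had 1, 0 and 1 in WT and 951, 247 and 296 in KI_Chd7del. Wnt2, a secreted Wnt ligand, had 2, 0 and 0 against 208, 441 and 70. In all 3 genes the libraries of the groups were far apart, and the KI_Chd7del libraries differed several-fold among themselves. Kcnc4, a voltage-gated potassium channel gene, was listed at 0 in each WT library and had 268, 177 and 210 in KI_Chd7del. Pkp1, a desmosome component, had 1, 1 and 0 against 374, 127 and 116. Cited1, a transcriptional co-regulator, had 1, 2 and 2 against 433, 145 and 164. Gsg1l and C2cd4a were also among them, with 319, 282 and 109 and with 575, 225 and 51 in KI_Chd7del and at most 5 in any WT library. Apart from the new gene Ifi202b, the 10 genes with the largest increases were kept ones. Kcnc4 was higher than in KI (78, 72 and 71), whereas Podxl, Wnt2, Gsg1l and C2cd4a were lower than in KI (adjusted p = 0.00762, 0.00254, 0.00331 and 0.0122).

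The 10 largest decreases were of Ear6, Sh3tc2, Cldn1, Baiap3 and 6 immunoglobulin variable segments. Ear6, an eosinophil-associated ribonuclease gene, had 1273, 821 and 2336 in WT and 2, 16 and 64 in KI_Chd7del (log2 fold change -6.50, SE 0.94, adjusted p = 0.000541). Cldn1, a tight junction protein, had 2180, 3241 and 3463 against 60, 71 and 211. Sh3tc2, an adaptor of endosomal recycling, had 1010, 921 and 894 against 11, 23 and 106. The lowest WT library was above the highest KI_Chd7del library for each of these genes, which was a condition for naming them. Ear6, Cldn1 and Sh3tc2 were lower still in KI, where no library exceeded 37. Baiap3 had 437, 681 and 479 in WT and 91, 0 and 70 in KI_Chd7del, and its adjusted p of 0.0213 rose to 0.0636 without WT library 2 and to 0.0531 without WT library 3.

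Gene lists were read by how many members passed the test in each direction, beside 24.0% higher and 24.3% lower over all genes. Against KI the shares over all genes were 17.5% higher and 22.9% lower, and in KI against WT 31.8% and 27.2%. Mast cell and basophil genes were the list with the largest median. Of 17 tested, 12 rose and 1 fell, with a median log2 fold change of 2.33, and 11 of the 17 were kept genes. This rank depends on the 1 added to each value before the log. With 16 added instead, 10 rose and the median was 1.428, against 1.431 for monocyte genes. Ms4a2, whose product is the beta subunit of the IgE receptor of mast cells, had 1024, 851 and 938 in WT and 18441, 14835 and 11302 in KI_Chd7del (log2 fold change 3.96, SE 0.18, adjusted p = 2.36e-06). Fcer1a, the IgE-binding alpha subunit, had 490, 413 and 550 against 8236, 11923 and 5146 (log2 fold change 4.05, SE 0.30, adjusted p = 1.98e-05). Il1rl1, the receptor of interleukin 33, had 1308, 1286 and 1122 against 13457, 9225 and 6578. Every KI_Chd7del library was far above the highest WT library for these genes, and each gene was still lower than in KI (adjusted p = 0.00472, 0.0249 and 0.000495). The mast cell protease gene Mcpt1 varied most, with 20, 1 and 0 in WT and 1893, 3047 and 168 in KI_Chd7del, and its neighbour Mcpt2 with 3, 3 and 4 against 324, 374 and 19. These proteases belong to a family of similar copies among which reads can be split. Proteases of basophils were otherwise: Prss34, a basophil protease, fell from 5917, 5246 and 5778 to 2970, 2104 and 3606, and Mcpt8, the other basophil protease of the list, had 3885, 2992 and 3501 in WT against 1889, 2499 and 3243 (adjusted p = 0.0581). Hdc, the enzyme that makes histamine, was not resolved (log2 fold change -0.16, adjusted p = 0.273). The whole list summed to 0.0809% to 0.0812% of each WT library and to 0.194% to 0.244% of each KI_Chd7del library.

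Gata2, a zinc finger factor of stem cells and mast cells, was itself a kept gene. It had 1284, 955 and 983 in WT and 13195, 9982 and 8376 in KI_Chd7del, a log2 fold change of 3.28 (SE 0.19, adjusted p = 5.02e-06). Gata1, its relative in red cell and mast cell precursors, had 3719, 3229 and 3161 against 3400, 2816 and 2526 and was not resolved (log2 fold change -0.22, adjusted p = 0.266). Because GATA factors bind (A/T)GATA(A/G), the RefSeq promoters (GRCm38.p6) of genes at the high and the low end were searched for AGATAA on both strands, where a match on the other strand reads TTATCT. The word was present in 11.2% of all 32851 promoter windows of 300 bases, in 969 of the 13844 windows of tested genes and in 9.39% of those of kept higher genes. It was present in 6 of 22 windows of the mast cell and basophil list and in 6 of 16 windows of the erythroid list. It was also in 4 of 20 windows of late neutrophil genes, 5 of 25 of interferon response genes, 3 of 14 of heme and globin genes and 1 of 19 of stem cell genes. The RUNX word TGTGGT, searched likewise on both strands, was in 10 of 22 mast cell and basophil windows, 5 of 16 erythroid windows, 1 of 19 stem cell windows and 16.8% of all windows. The genes of both receptor chains that rose and the red cell gene Rhd that fell hold AGATAA or TTATCT. The 250 bases before their starts are shown with each match to these letters in capitals, and the RUNX word is not marked. A match is a description of these letters only.
Ms4a2 (chr19:11623720-11623969, minus strand): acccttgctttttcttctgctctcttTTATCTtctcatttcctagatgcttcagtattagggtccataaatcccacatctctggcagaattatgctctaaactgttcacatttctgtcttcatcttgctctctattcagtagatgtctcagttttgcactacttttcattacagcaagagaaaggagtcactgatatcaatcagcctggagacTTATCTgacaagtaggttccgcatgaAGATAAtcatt
Fcer1a (chr1:173227230-173227479, minus strand): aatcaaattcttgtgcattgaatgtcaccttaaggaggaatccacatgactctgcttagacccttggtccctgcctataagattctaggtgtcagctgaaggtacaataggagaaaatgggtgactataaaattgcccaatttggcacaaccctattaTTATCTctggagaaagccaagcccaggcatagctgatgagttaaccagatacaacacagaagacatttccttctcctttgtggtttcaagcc
Rhd (chr4:134864286-134864535, plus strand): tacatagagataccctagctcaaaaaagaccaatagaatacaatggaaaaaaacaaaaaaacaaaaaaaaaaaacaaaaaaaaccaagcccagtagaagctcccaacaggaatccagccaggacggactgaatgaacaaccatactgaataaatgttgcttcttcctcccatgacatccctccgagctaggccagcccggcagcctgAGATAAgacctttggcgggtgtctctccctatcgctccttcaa

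Monocyte genes were the next kept list. Of 20 tested, 14 rose and 2 fell, with a median log2 fold change of 1.44, and 12 were kept. F13a1, coagulation factor XIII A of monocytes, had 9917, 7832 and 8284 in WT and 35476, 46499 and 37936 in KI_Chd7del (log2 fold change 2.20, SE 0.12, adjusted p = 4.47e-06). Ms4a6c had 1331, 1174 and 1198 against 4048, 4607 and 4664. Ly86, the partner of the toll-like receptor homologue RP105, had 1273, 1261 and 1222 against 3653, 3540 and 3470. The groups did not overlap for any of them, and KI was higher again, at 69602, 63992 and 73851 for F13a1. The exceptions were the lysozyme genes Lyz1 and Lyz2, which neutrophils also express and which fell (log2 fold change -0.94 and -1.08, adjusted p = 0.00249 and 0.00338), Lyz2 not after quantile normalisation (adjusted p = 0.55). Irf8, a transcription factor of monocyte and dendritic cell fate, rose beyond its level in KI, from 4966, 3723 and 3403 in WT to 12341, 11208 and 11292 (KI 7074, 7850 and 8749).

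Dendritic cell and MHC class II genes rose in 13 of 16 cases and fell in 1, with a median of 1.21. H2-DMa, which loads peptides onto class II molecules, had 1465, 1468 and 1478 in WT and 3738, 3665 and 3643 in KI_Chd7del (log2 fold change 1.32, SE 0.04, adjusted p = 8.94e-07). Its partner H2-DMb1 had 599, 657 and 687 against 1384, 1467 and 1330. Tcf4, a factor of plasmacytoid dendritic cells, had 1391, 1170 and 1251 against 2792, 2603 and 3206. The groups did not overlap for these 3 genes, and the spread of H2-DMa within a group was small. Zbtb46, a marker of conventional dendritic cells, was the member that fell, from 541, 520 and 520 to 79, 112 and 194. Macrophage genes showed no common direction: 5 of 19 rose and 3 fell, with a median of -0.10 that became 0.15 with columns scaled to their totals, 0.02 with late neutrophil genes left out of those totals and 0.02 without WT library 2. Only 3 rose without WT library 1 or without KI_Chd7del library 2, and 7 fell without KI library 2. Clec10a and Cd209a, lectins of the kind that bind sugars on pathogens, were among those that rose, with log2 fold changes of 2.30 and 2.43 (adjusted p = 2.65e-05 and 0.000117), and the iron exporter Slc40a1 fell by 0.94 (adjusted p = 0.000623).

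Among receptors of growth factors and cytokines, 11 of 20 rose and 5 fell, with a median of 0.44. Il6st, the signalling chain of the interleukin 6 family, had 1300, 924 and 875 in WT and 5591, 5427 and 5979 in KI_Chd7del (log2 fold change 2.48, SE 0.13, adjusted p = 4.47e-06), and its partner Il6ra had 1832, 2035 and 2131 against 3904, 4395 and 4032. Csf1r, the receptor of macrophage colony-stimulating factor, rose from 3843, 4359 and 4758 to 11177, 14434 and 12602. Epor, the receptor of erythropoietin, fell from 1625, 1570 and 1361 to 850, 675 and 719 (adjusted p = 8.72e-05). Csf2rb2, a beta chain used by interleukin 3, rose from 1456, 1308 and 1483 to 5415, 4814 and 3109, and its paralogue Csf2rb, with which reads can be shared, rose by 0.56 (adjusted p = 0.0111).

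Chromatin remodeller genes other than Chd7 rose in 14 of 23 cases and fell in 1, with a median of 0.28. Chd3, a subunit of the NuRD complex, had 1310, 1268 and 1092 in WT, 5891, 5363 and 5027 in KI_Chd7del and 4900, 4933 and 5263 in KI (log2 fold change against WT 2.15, SE 0.08, adjusted p = 1.89e-06). Chd9 had 2240, 1989 and 2122 in WT and 4454, 4676 and 4607 in KI_Chd7del, and Chd6, which with Chd7 and Chd9 forms 1 subfamily, had 1465, 1365 and 1416 against 2741, 2839 and 2863. Neither Chd3 nor Chd9 nor Chd6 differed from KI at the threshold (adjusted p = 0.322, 0.373 and 0.188). Of the core binding factor list, with 6 of 11 higher, 3 lower and a median of 0.32, Runx1 rose from 3036, 2841 and 2929 to 4645, 4452 and 4475. Cbfa2t3, a co-repressor of the ETO family, rose from 1274, 1133 and 1101 to 3186, 3163 and 3046. Myh10, a non-muscle myosin, fell from 3595, 3259 and 3688 to 1449, 1472 and 1970.

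Among kept genes within 1.5-fold of KI, the largest higher ones were Cited1, Nudt11, Tmem178, Kif26b, Slc7a8 and Kcne3. Slc7a8, an amino acid transporter, had 628, 612 and 585 in WT, 9405, 7669 and 5257 in KI_Chd7del and 10143, 4994 and 8654 in KI. Tmem178 had 58, 35 and 28, then 1071, 850 and 689, and 625, 660 and 686 in KI. The largest lower ones were Tmem45a2, Ms4a1, Fcmr, Sdc2, Igkv5-39 and Agtr1a. Ms4a1, which encodes the B cell antigen CD20, had 744, 993 and 769 in WT, 28, 44 and 232 in KI_Chd7del and 56, 44 and 35 in KI. Fcmr, the IgM Fc receptor of B cells, had 344, 521 and 358, then 23, 23 and 85. Agtr1a, an angiotensin receptor, had 252, 193 and 223, then 15, 12 and 56. KI_Chd7del library 3 was the highest of its group for Tmem45a2, Ms4a1, Fcmr and Agtr1a.

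**Figure D2:**
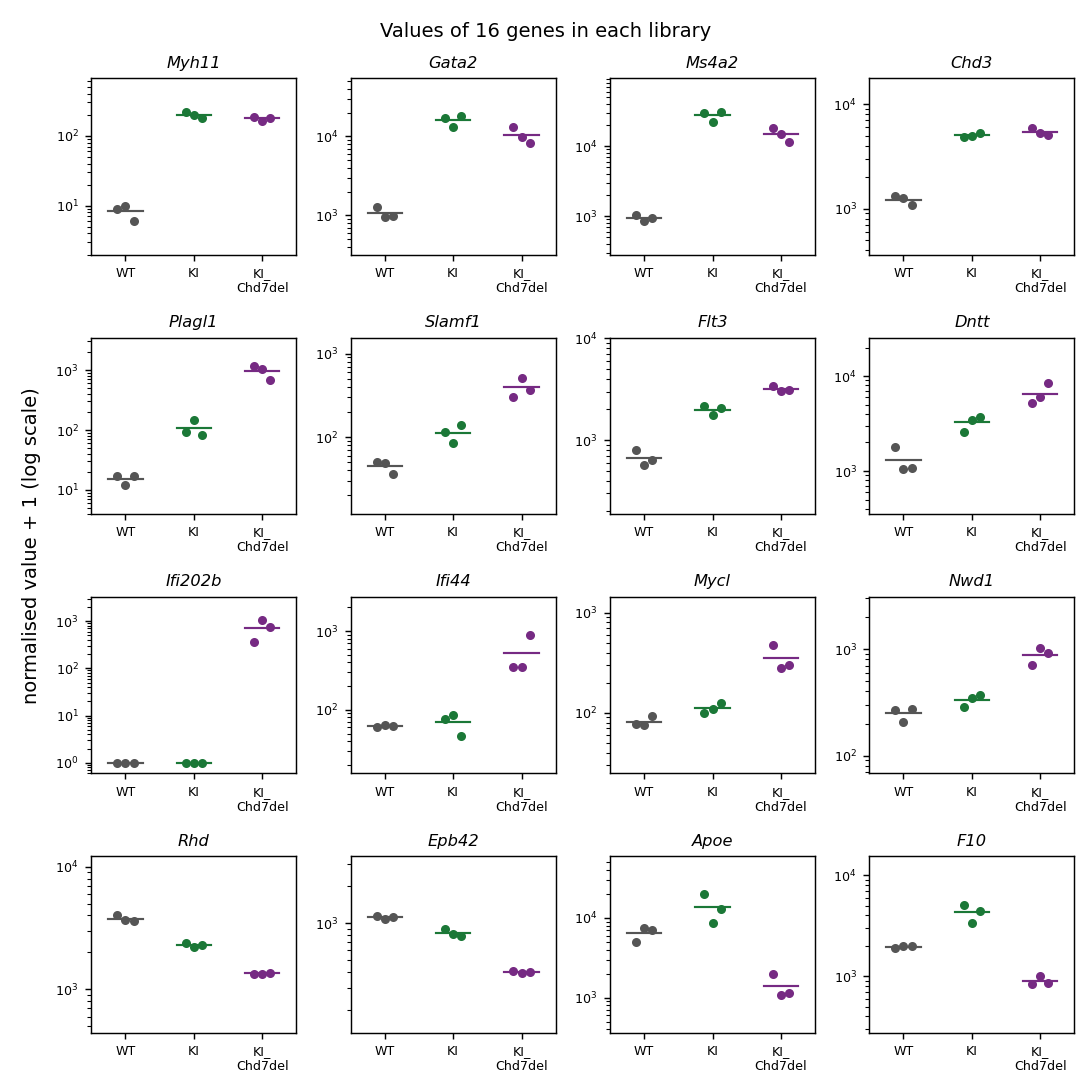
Normalised value plus 1 on a log axis for 16 genes in WT, KI and KI_Chd7del, with 1 point per library and a bar at the group mean. Myh11, Gata2, Ms4a2 and Chd3 are kept genes, far above WT in KI and in KI_Chd7del; Plagl1, Slamf1, Flt3 and Dntt are higher in KI_Chd7del than in KI; Ifi202b, Ifi44, Mycl and Nwd1 stand apart from both other groups; Rhd, Epb42, Apoe and F10 are lowest in KI_Chd7del.

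Late neutrophil genes stayed low. Of 20 tested, 17 fell and none rose, with a median log2 fold change of -1.40, and 16 were kept genes. Ly6g, the surface marker of mature neutrophils, had 9722, 13928 and 13427 in WT and 1674, 1584 and 2161 in KI_Chd7del (log2 fold change -2.77, SE 0.48, adjusted p = 0.0014). S100a9, a calcium-binding protein of neutrophil cytoplasm, had 1173961, 1422598 and 1448246 against 380324, 264013 and 297492, and did not pass after quantile normalisation (adjusted p = 0.12). Fcnb, a ficolin of granules, had 39481, 38231 and 41158 against 11144, 9368 and 10571. Of the 20, 19 had every KI_Chd7del library below every WT library, the exception being Cxcr2, named for that reason, and 18 of the 20 were higher than in KI. The number that passed fell to 11 without WT library 2, without WT library 3 or without KI_Chd7del library 2, to 12 without KI_Chd7del library 1 or 3 and to 9 after quantile normalisation, with the median between -1.51 and -1.04 in these settings.

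Genes of early granules, made at the promyelocyte stage, split. Elane, neutrophil elastase, fell from 84716, 81378 and 91320 to 23827, 32868 and 36895 (log2 fold change -1.48, SE 0.20, adjusted p = 0.000413). Cebpe, a factor of late granulocyte maturation, fell from 11324, 12743 and 11230 to 4042, 3740 and 3918. Mpo, myeloperoxidase, was not resolved, with 218566, 189519 and 232841 in WT and 164347, 241378 and 230524 in KI_Chd7del (adjusted p = 0.915), while Ctsg, cathepsin G, rose from 34080, 27171 and 34166 to 38170, 53604 and 44360 (adjusted p = 0.0362). Ctsg did not pass without any 1 of the WT libraries, without KI_Chd7del library 2 or without library 3 (adjusted p = 0.0517 to 0.128). In all, 1 of 11 rose and 6 fell, with a median of -0.53, and without KI_Chd7del library 1, 3 rose and 5 fell. Eosinophil genes varied with the library left out: 1 of 12 rose and 3 fell, with a median of 0.22, and without KI_Chd7del library 1 the counts were 4 and 2 and the median 0.77. The median was -0.04 without WT library 2, -0.08 without KI_Chd7del library 2 and -0.14 without KI_Chd7del library 3. Epx, eosinophil peroxidase, had 6371, 3895 and 8527 in WT and 2717, 17553 and 18049 in KI_Chd7del, so that library 1 lay below WT and the other libraries above it. Siglecf, an eosinophil sialic acid receptor, rose in each library, from 1187, 1021 and 1326 to 2856, 3170 and 2475.

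Stem cell genes rose, most of them beyond KI. Of 22 tested, 19 rose against WT and 1 fell, with a median log2 fold change of 1.52, and 13 were also higher than in KI and 5 lower. The median of the same genes in KI against WT was 0.62. Slamf1, the CD150 antigen of long-term stem cells, had 49, 48 and 35 in WT, 299, 516 and 368 in KI_Chd7del and 114, 84 and 138 in KI (log2 fold change against WT 3.11, SE 0.26, adjusted p = 2.83e-05). Procr, the endothelial protein C receptor used to sort stem cells, had 27, 20 and 29, then 107, 195 and 167, and 84, 61 and 79 in KI. For both genes the 3 groups did not overlap. Fgd5, a stem cell reporter gene, had 14, 19 and 14 in WT, 51, 87 and 67 in KI_Chd7del and 20, 19 and 23 in KI, and Esam, an adhesion molecule of stem cells and endothelium, had 45, 45 and 59, then 93, 140 and 175, and 49, 43 and 58. Fgd5, Esam, Hoxa5 and Ndn were the 4 new genes of the list. Cd34 rose from 3342, 2274 and 2333 to 5242, 7054 and 7838 (log2 fold change 1.34, adjusted p = 0.000452). Angpt1, the ligand of the Tie2 receptor, rose from 1049, 677 and 724 to 2037, 3070 and 2812. Tek, which encodes Tie2, rose from 79, 41 and 62 to 638, 643 and 456 but stayed below KI, where it had 1663, 1011 and 1604. Mllt3 was the member that fell (log2 fold change -0.23, adjusted p = 0.0373), a call lost without any 1 of the WT libraries, without KI_Chd7del library 1 or 2, without KI library 3 and with columns scaled to their totals (adjusted p = 0.0535 to 0.853), and Ly6a, a stem cell surface antigen, was not resolved.

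Homeobox genes of the HOX, MEIS and PBX families, many of them active in stem cells, rose in 9 of 14 cases and fell in 1, with a median of 0.59. Only 6 rose without WT library 2, without KI_Chd7del library 3 or after quantile normalisation (medians 0.71, 0.54 and 0.35). The list summed to 0.0221% to 0.0238% of a WT library and to 0.0303%, 0.0220% and 0.0239% of KI_Chd7del libraries 1, 2 and 3. Meis1, a partner of HOX proteins, had 361, 239 and 269 in WT and 587, 818 and 872 in KI_Chd7del (log2 fold change 1.39, SE 0.21, adjusted p = 0.000699). Hoxa9 rose less, from 181, 140 and 182 to 204, 244 and 292 (adjusted p = 0.0303, and 0.0712 to 0.109 without WT library 2 or without KI_Chd7del library 2 or 3), and Hoxa10 from 23, 15 and 18 to 47, 61 and 62. Megakaryocyte and platelet genes were divided. Of 17 tested, 8 rose and 2 fell, with a median of 0.24. Selp, P-selectin, rose from 246, 170 and 216 to 1336, 1597 and 1159, and Gp5, a platelet glycoprotein, from 397, 319 and 280 to 1931, 1623 and 1371. Pf4, platelet factor 4, had 940, 524 and 803 against 390, 660 and 869 and was not resolved (adjusted p = 0.511). The median was 0.12 without WT library 1, and 5 members rose without WT library 2, without KI_Chd7del library 2 or without KI_Chd7del library 3.

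Genes of early lymphoid cells rose. Of 18 B cell genes, 13 rose against WT and 2 fell, with a median log2 fold change of 1.18, and 9 were higher than in KI and 1 lower. Dntt, the terminal transferase of early lymphoid cells, had 1776, 1062 and 1075 in WT, 5179, 5969 and 8447 in KI_Chd7del and 2568, 3477 and 3730 in KI (log2 fold change against WT 2.34, SE 0.24, adjusted p = 8.65e-05). Ebf1, a factor that commits cells to the B lineage, had 431, 418 and 344, then 1587, 1154 and 2459, and 730, 1157 and 996 in KI. Dntt showed 3 groups that did not overlap, whereas for Ebf1 the lowest KI_Chd7del library was just below the highest KI library. Rag1, the recombinase of antigen receptor genes, rose from 461, 405 and 261 to 2886, 2026 and 6136, and Il7r, the interleukin 7 receptor, from 346, 270 and 254 to 1467, 981 and 1772. Vpreb2 and Igll1, surrogate light chain genes whose products pair with the heavy chain in pre-B cells, were new genes, and so was Vpreb3. Vpreb3 had 540, 549 and 411 in WT, 1488, 1224 and 2175 in KI_Chd7del and 560, 868 and 790 in KI. Each KI library was thus already above WT for Vpreb3 (log2 fold change 0.55, adjusted p = 0.0654). Igll1 had 840, 671 and 634 in WT, 1436, 1296 and 2371 in KI_Chd7del and 523, 948 and 698 in KI. KI_Chd7del library 3 was highest for each of these B lineage genes. The members that fell were Ms4a1 and Cd22, both genes of mature B cells. Flt3, the cytokine receptor of lymphoid-primed progenitors, had 803, 564 and 631 in WT, 3371, 3005 and 3094 in KI_Chd7del and 2138, 1782 and 2051 in KI (log2 fold change against WT 2.26, SE 0.12, adjusted p = 4.64e-06).

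Other genes that lay further from WT than KI were picked after their values were seen. Plagl1, an imprinted zinc finger gene, had 16, 11 and 16 in WT, 1151, 1061 and 675 in KI_Chd7del and 92, 147 and 81 in KI (log2 fold change against WT 5.95, SE 0.28, adjusted p = 2.8e-06). Sox4, a factor of early lymphoid progenitors, had 239, 172 and 170, then 634, 729 and 908, and 342, 422 and 478 in KI. Aff3, a nuclear protein of lymphoid cells, had 913, 702 and 694, then 2785, 2345 and 2601, and 1651, 1693 and 1664 in KI. The 3 groups were apart for each gene, in the order WT, KI and KI_Chd7del. Of the 63 genes in this class, 46 were higher than in WT (0.288% of all tested) and 17 lower (0.106%).

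**Figure D3:**
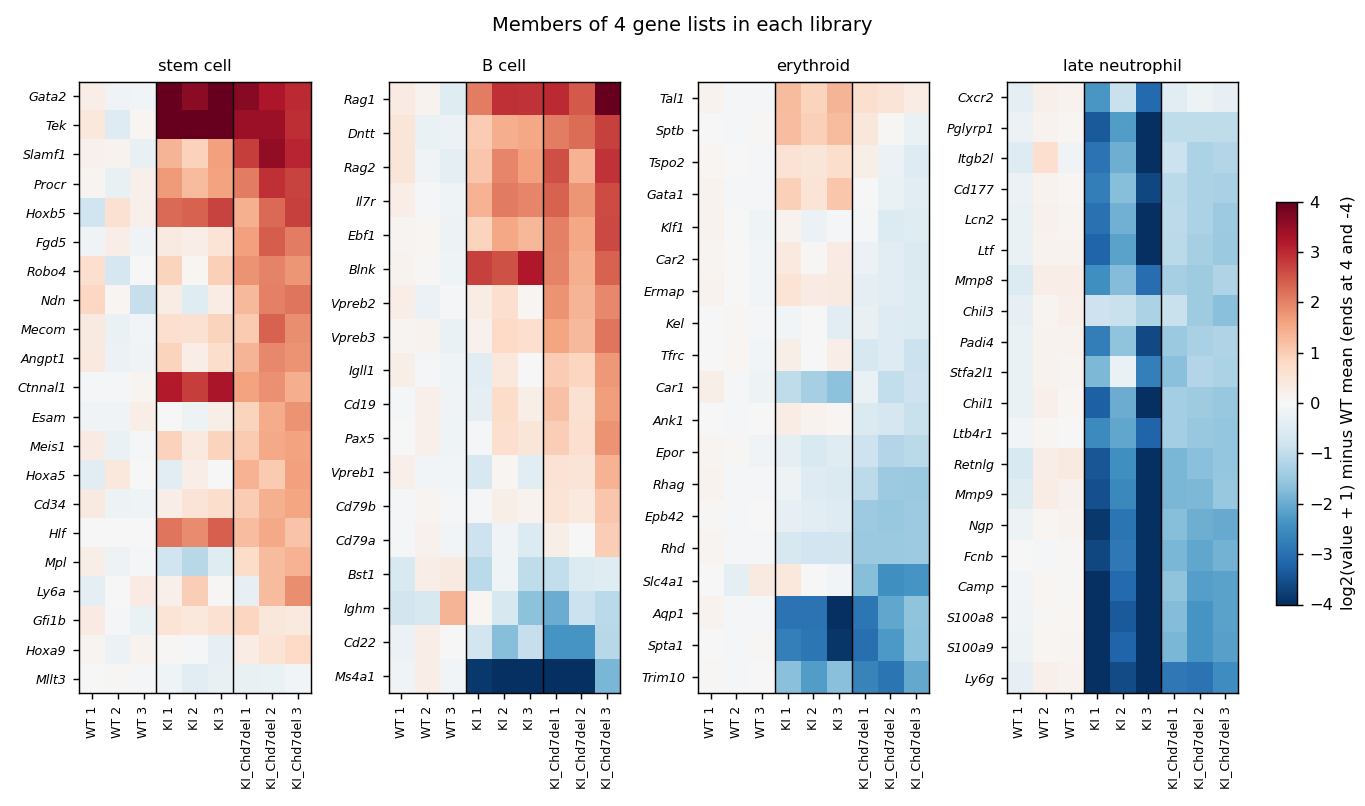
Colours give log2(value + 1) minus the WT mean for members of 4 lists, 1 stem cell and 1 erythroid gene left out, (rows, sorted by their change in KI_Chd7del) in each of 9 libraries (columns); red is above and blue below the WT mean, with colours ending at 4 and -4. Most erythroid rows are bluer in KI_Chd7del than in KI, 13 of the 22 stem cell genes and 9 of the 18 B cell genes tested are higher than in KI, and most late neutrophil rows lie between WT and KI.

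Erythroid genes fell. Of 20 tested, 15 fell and 1 rose, with a median log2 fold change of -0.70, and 15 were lower than in KI. In KI against WT the same list had 5 higher, 9 lower and a median of -0.12. Rhd, a Rhesus membrane protein, had 4033, 3641 and 3613 in WT, 1344, 1332 and 1369 in KI_Chd7del and 2398, 2225 and 2276 in KI (log2 fold change against WT -1.48, SE 0.06, adjusted p = 1.89e-06). The membrane genes Epb42 and Slc4a1 (band 3) were new: Epb42 had 1148, 1086 and 1108 in WT, 410, 390 and 403 in KI_Chd7del and 886, 809 and 784 in KI. Slc4a1 had 5040, 3789 and 6386, then 1509, 901 and 960, and 6593, 4880 and 4548. KI_Chd7del was the lowest group for Rhd, Epb42 and Slc4a1 with no overlap. For Epb42 each KI library was already below every WT library, though within the 1.5-fold limit of the rule for new genes. Tal1, a factor of stem cells and red cell precursors, was the member that rose (log2 fold change 0.48, adjusted p = 0.0124), while Gata1, Klf1, Sptb and Tspo2 were not resolved.

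Genes of heme synthesis and globins followed in part. Of 15 tested, 9 fell and none rose, with a median of -0.67. Uros, uroporphyrinogen III synthase, had 1449, 1510 and 1408 in WT and 553, 514 and 695 in KI_Chd7del (log2 fold change -1.32, SE 0.10, adjusted p = 2.4e-05). Cpox, coproporphyrinogen oxidase, had 8457, 8005 and 7355, then 4907, 4882 and 4512. Both enzymes were lower in each KI_Chd7del library than in any WT library. The globin genes Hba-a1 and Hbb-bs and the erythroid enzyme Alas2, which were high in KI, had KI_Chd7del libraries on both sides of the WT range: Hba-a1 had 5084, 4020 and 5558 in WT, 6938, 5233 and 1823 in KI_Chd7del and 44007, 30916 and 51271 in KI. Library 3 was the lowest of KI_Chd7del for these genes, and none of Hba-a1, Hba-a2, Hbb-bs, Hbb-bt and Alas2 passed against WT.

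Of the new genes, 29 of the 97 higher and 28 of the 64 lower averaged at least 200 in the group where they were high. Ifi202b, which encodes a DNA-binding p200 protein induced by interferon, had listed values of 0 in each WT and each KI library and 355, 1074 and 751 in KI_Chd7del. It lies on chromosome 1 (173962568 to 173982744, GRCm38) among its relatives, and reads of the family can be split between similar members. Ifi44, an interferon-induced protein, had 59, 63 and 61 in WT, 346, 352 and 900 in KI_Chd7del and 75, 84 and 46 in KI (log2 fold change against WT 2.95, SE 0.37, adjusted p = 0.000229). Mycl, a MYC relative of dendritic cells, had 76, 74 and 92, then 475, 281 and 300, and 99, 108 and 124 in KI. Nwd1 had 268, 204 and 274, then 710, 1023 and 921, and 286, 345 and 372 in KI. Gucy1a1, a subunit of the nitric oxide receptor, had 87, 56 and 75, then 501, 159 and 200, and 52, 47 and 53 in KI. Pdgfrb, a receptor of platelet-derived growth factor known from stromal cells, had 192, 111 and 109, then 382, 459 and 537, and 247, 151 and 177 in KI. In each of these 6 genes every KI_Chd7del library was above all 6 other libraries, which was a condition for naming them. For Mycl and Nwd1 each KI library was already above every WT library, and for Gucy1a1 each was below. Further new genes, picked after their values were seen, include Adgrl4, an adhesion receptor of endothelium and stem cells, with 1633, 1250 and 1449 in WT, 3355, 3842 and 3430 in KI_Chd7del and 1374, 1535 and 1615 in KI. Dapk2, a death-associated kinase, went the other way with 812, 782 and 722, then 300, 320 and 273, and 885, 671 and 787 in KI. Of 11 stroma and endothelium genes, 3 rose and 2 fell, with a median of 0.43, which became -0.36 over all listed genes without the filter on low values. The median was 0.18 without WT library 3, 0.24 without KI_Chd7del library 1 and 0.24 without KI_Chd7del library 3. Among those that rose was Pecam1, the CD31 antigen shared by endothelium and blood cells, with 1747, 1377 and 1439 against 3863, 4332 and 4525.

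Interferon-inducible genes were uneven between the KI_Chd7del libraries. In KI against WT, 8 of 12 p200 family genes were higher and none lower, with a median log2 fold change of 1.51. In KI_Chd7del against WT 8 rose and none fell, with a median of 1.19. Against KI, 3 of them were higher in KI_Chd7del and 4 lower, with a median of -0.46. Ifi214 had 41, 43 and 35 in WT, 284, 412 and 650 in KI_Chd7del and 92, 106 and 118 in KI. Ifi203 had 1143, 943 and 921, then 3111, 4183 and 5733, and 3039, 4383 and 3674 in KI. Without KI_Chd7del library 3, 6 p200 genes rose and 2 fell, of 11 tested, with a median of 0.75, and without library 1, 8 rose and none fell, with a median of 1.39. Of 28 other interferon response genes, 10 were higher and 2 lower in KI against WT, with a median of 0.46. In KI_Chd7del against WT 10 rose and 1 fell, with a median of 0.81. Without KI_Chd7del library 1, 21 rose and none fell and the median was 1.27, whereas without library 3 the numbers were 8 and 2 and the median 0.33. The summed level of these genes was 0.0508% to 0.0616% of a WT library and 0.0641%, 0.0898% and 0.150% of KI_Chd7del libraries 1, 2 and 3. Irf7, which amplifies the interferon response, had 665, 895 and 779 in WT and 639, 1983 and 4029 in KI_Chd7del and was not resolved (adjusted p = 0.107). Mx1, whose promoter drives the Cre, had 43, 61 and 63 in WT, 222, 367 and 706 in KI_Chd7del and 588, 860 and 662 in KI. Its log2 fold change in KI_Chd7del against WT was 2.79 (SE 0.37, adjusted p = 0.000311). Gbp7, a guanylate-binding protein, had 1435, 1663 and 1432 against 3187, 3153 and 3856, with little spread.

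Immunoglobulin variable segments were examined after their place among the largest decreases was seen. Of 173 tested, 93 fell and 6 rose in KI_Chd7del against WT, with a median log2 fold change of -2.08. In KI against WT, 31 fell and 2 rose, with a median of -0.84. Their summed level was 0.142%, 0.140% and 0.283% of the WT libraries and 0.0333%, 0.0704% and 0.0595% of the KI_Chd7del libraries. The KI libraries held 0.150%, 0.0985% and 0.0563%, so KI library 3 lay within the KI_Chd7del range. Ighv1-19, a heavy chain segment, was even between libraries, with 305, 149 and 308 in WT, 17, 17 and 18 in KI_Chd7del and 252, 211 and 167 in KI (log2 fold change against WT -3.72, SE 0.28, adjusted p = 2.1e-05). In others WT library 3 was far above the rest of its group: Ighv1-50 had 46, 116 and 3010 in WT and 0, 8 and 5 in KI_Chd7del and passed also without WT library 3 (adjusted p = 0.00984), and Igkv12-46 had 475, 507 and 12168 against 19, 161 and 54. Igkv12-46 and Igkv4-55 no longer passed without WT library 3 (adjusted p = 0.0521 and 0.0559). Igkv12-46 did not pass without KI_Chd7del library 1 (adjusted p = 0.0645), nor Igkv4-55 without KI_Chd7del library 2 (adjusted p = 0.0606). Of the 64 new lower genes, 16 were variable segments, which were 173 of the 15997 genes tested. Chromosome 12, which holds the heavy chain segments, had 7 new higher and 15 new lower genes among 611 tested (3.60%). On chromosome 6, which holds the kappa segments, 1.82% of genes were new, against 1.01% over all genes. The source of this unevenness was not tested. Ighv3-2 went the other way, listed at 0 in each WT library and with 88, 888 and 142 in KI_Chd7del and 0, 0 and 1 in KI. Reads from similar segments can be split between them. Jchain, the joining chain of plasma cells, had 17288, 17074 and 38219 in WT and 2918, 6764 and 4972 in KI_Chd7del, and Igkc, the kappa constant region, had 54315, 60180 and 138985 against 10556, 25333 and 19822. Sdc1, the plasma cell surface marker CD138, was higher, with 351, 298 and 503 against 557, 784 and 564 (log2 fold change 0.74, adjusted p = 0.0135, and 0.0512 without WT library 2). Ighm was not resolved (adjusted p = 0.107).

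T and NK cell genes fell more often than they rose, 8 against 2 of 18, with a median of -0.87. Without KI_Chd7del library 3, 12 fell and 2 rose (median -1.30), and without library 1, 7 fell and 3 rose (median -0.67). Without WT library 2, 6 fell and 2 rose (median -0.75). Gzma, granzyme A of NK and cytotoxic T cells, was new, with 73, 97 and 72 in WT, 6, 20 and 19 in KI_Chd7del and 45, 167 and 82 in KI (log2 fold change against WT -2.50, SE 0.53, adjusted p = 0.0041). Ncr1, the NK cell receptor NKp46, had 133, 172 and 162 against 19, 57 and 90 (adjusted p = 0.0154, and 0.0511 without WT library 2). Cd8a rose from 25, 94 and 39 to 193, 169 and 190, and Gzmb, which progenitors can also express, from 95, 156 and 126 to 245, 394 and 386. Cd3e, a chain of the T cell receptor complex, had 58, 112 and 45 against 26, 48 and 62 and was not resolved (adjusted p = 0.253).

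The 14 genes changed in the opposite direction to KI are mostly lower than WT, 13 against 1. Apoe, the lipid carrier of macrophages, had 4932, 7415 and 7006 in WT, 1969, 1090 and 1153 in KI_Chd7del and 19732, 8527 and 12809 in KI (log2 fold change against WT -2.23, SE 0.32, adjusted p = 0.000512). F10, coagulation factor X, had 1884, 1982 and 1976, then 829, 1004 and 850, and 5093, 3336 and 4368 in KI. Bhlhe40, a repressor of the circadian clock that activated myeloid cells express, had 1423, 1394 and 1542, then 685, 783 and 639, and 3798, 2380 and 5084 in KI. The 3 groups did not overlap for any of these genes, which for KI_Chd7del and WT was a condition for naming them. Arg1, arginase 1, picked after its values were seen, was barely present in WT (12, 9 and 14) and in KI_Chd7del (5, 1 and 3) but had 3811, 855 and 4166 in KI, and its difference from WT did not pass without any 1 of the WT libraries or without KI_Chd7del library 2 or 3 (adjusted p = 0.0627 to 0.125). The single gene that was higher than WT was Gm2539, named for that reason, with 2, 1 and 5 in WT, 86, 87 and 95 in KI_Chd7del and 1, 0 and 0 in KI. The number of opposite genes was 9 without WT library 3 and 9 without KI library 1.

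Cell cycle genes fell by small amounts. Of 22 mitosis genes 20 fell and none rose, with a median log2 fold change of -0.41, and of 26 DNA replication genes 20 fell and 2 rose, with a median of -0.34. Ccne1, cyclin E1, changed most among them, from 3440, 3074 and 3004 to 1443, 1481 and 1553 (log2 fold change -1.09, SE 0.09, adjusted p = 2.67e-05). Rrm2, a ribonucleotide reductase subunit, fell from 18640, 16991 and 17146 to 10505, 9344 and 10043. Ccnb2, a mitotic cyclin, fell from 8538, 7960 and 8124 to 5642, 4834 and 5356. These shifts are of the size that scaling moves: with columns scaled to their totals 12 mitosis genes fell and 1 rose, 6 replication genes fell and 2 rose, and the medians were -0.17 and -0.09. Mki67, the Ki-67 proliferation antigen, was not resolved (log2 fold change -0.18, adjusted p = 0.185).

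Metabolic lists moved unevenly. Mitochondrially encoded genes rose in 11 of 13 cases, with a median of 0.51. Mt-Nd5, a complex I subunit, had 52569, 50740 and 54642 in WT and 108934, 88677 and 82271 in KI_Chd7del (mt-Nd5 log2 fold change 0.82, SE 0.11, adjusted p = 0.000339), with library 1 highest. Without KI_Chd7del library 1, 7 rose and 1 fell and the median was 0.36; without WT library 2, 5 rose, and without WT library 1 or 3, 7. Nuclear genes of oxidative phosphorylation fell in 14 of 24 cases with a median of -0.19, which turned to 0.057 (5 higher, 3 lower) with columns scaled to their totals, and 9 fell without WT library 1. Ndufb7, a complex I subunit, fell from 4780, 5058 and 4853 to 3264, 2907 and 2935 (log2 fold change -0.69, SE 0.06, adjusted p = 4.8e-05). Glycolysis genes fell in 12 of 20 cases and rose in 3, with a median of -0.29 that was -0.04 with columns scaled to their totals. Slc16a3, a lactate exporter, fell from 3485, 4342 and 4311 to 1523, 1768 and 1845, and Slc2a3, a glucose transporter, from 10415, 13569 and 13319 to 6155, 6076 and 5911. Pfkp, a phosphofructokinase, rose by 0.70 on the log2 scale (adjusted p = 0.000479).

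The remaining lists had members on both sides. Cholesterol synthesis genes rose in 2 and fell in 7 of 21 cases with a median of -0.08, which became 0.17 (9 higher, 1 lower) with columns scaled to their totals and lay between -0.14 and -0.052 as a library was left out. Ribosome biogenesis genes rose in 4 and fell in 1 of 20 cases (median 0.06, and -0.0065 without KI_Chd7del library 2), 8 rose without KI_Chd7del library 1, and 17 rose with columns scaled to their totals. Chaperone genes of the unfolded protein response rose in 4 and fell in 1 of 20 (median 0.14), with 10 and 0 under that scaling, 9 and 1 without KI_Chd7del library 1 and medians from 0.064 to 0.25 as each WT or KI_Chd7del library was left out. Immediate early genes rose in 3 and fell in 4 of 19 (median 0.36), with 2 and 6 (median 0.094) without WT library 1, 5 and 2 without WT library 3, and a median of 0.16 without KI_Chd7del library 2. Myc was among those that rose, from 5197, 4179 and 3585 to 8104, 6741 and 7818 (log2 fold change 0.82, SE 0.13, adjusted p = 0.000882). Targets of p53 rose in 8 and fell in 6 of 18 cases (median 0.14), with Sesn1, a stress sensor, from 1244, 1031 and 1132 to 2023, 1806 and 2023, and the death receptor Fas from 372, 462 and 506 to 202, 177 and 237. Adhesion and migration genes rose in 10 and fell in 6 of 20 (median 0.19, and 0.12 without WT library 1): Itgb7, an integrin of gut homing and mast cells, rose from 1124, 1314 and 1371 to 5489, 5348 and 4650, and Itgb2, the common chain of leukocyte integrins, fell from 40009, 52673 and 51065 to 19859, 17482 and 19466.

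**Figure D4:**
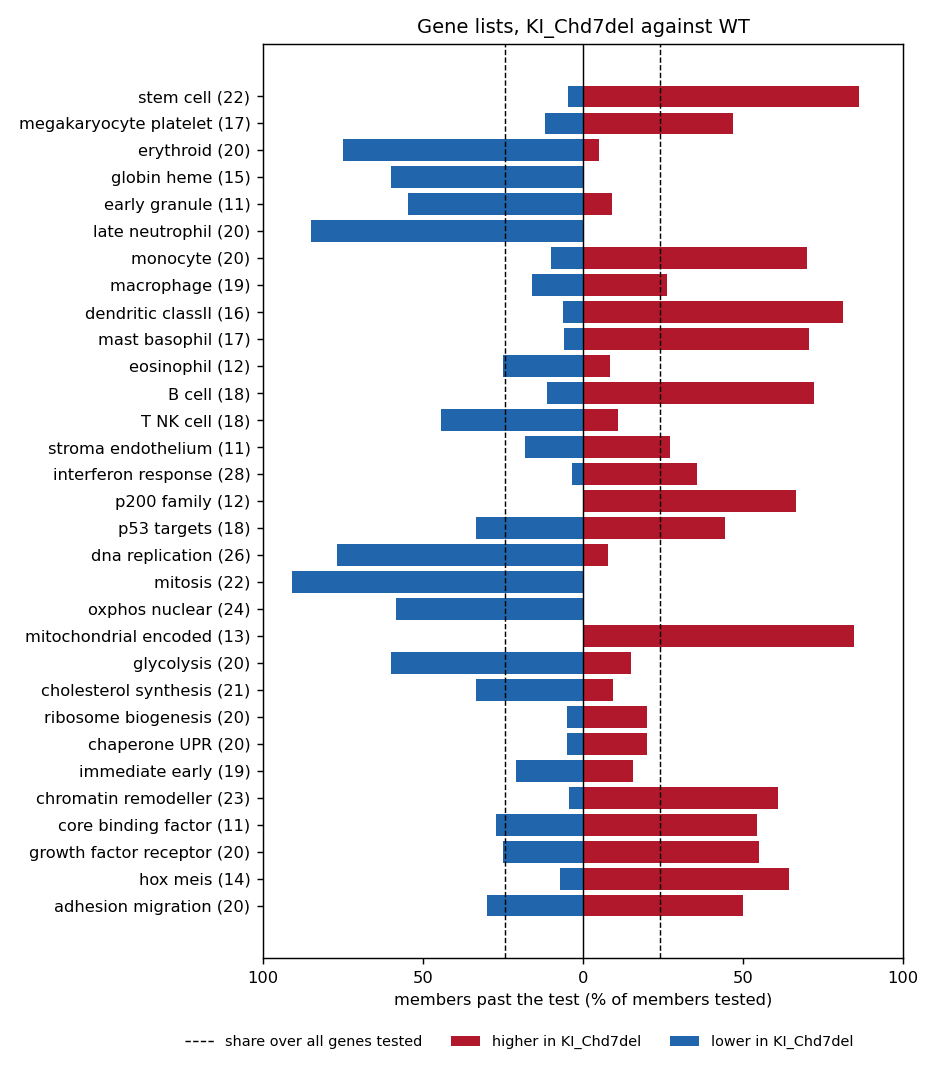
Bars give the share of tested members of each of 31 gene lists (number tested in brackets) that passed the test and were higher (right) or lower (left) in KI_Chd7del than in WT; dashed lines mark 24.0% and 24.3%, the shares over all genes tested. Stem cell, dendritic and class II, B cell and mast cell and basophil bars reach far to the right, and late neutrophil, mitosis, DNA replication and erythroid bars far to the left.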

How the data were processed

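RNA-seq values of 43629 Ensembl genes in 9 libraries came from 1 table. The values deposited by the authors are of the unit score: normalised read numbers, scaled between libraries and then rounded to whole numbers, as judged from the values. The tools CASAVA 1.8.2, STAR 2.4, RSEM and DESeq2 and the build GRCm38 are named in the submitters' processing notes; the annotation and strand setting are not given in the sources used here. Whether strand was used decides how overlapping genes are counted. GENCODE M21 gave symbols for 42462 identifiers and none for 1167.

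The fit was limma 3.58.1 (R 4.3.3) on log2(value + 1) with the trend option, fitted to 3 groups of 3 libraries; 2-sided p-values were adjusted by Benjamini-Hochberg at 0.05 over 15997 genes with at least 10 in at least 3 libraries. The pseudocount of 1 understates changes of low genes. The script was tested on simulated data. Genes named as largest, in all or among close kept, new or opposite genes, had to average at least 200 where higher. They also had to show no overlap between KI_Chd7del and WT, and new genes none between KI_Chd7del and KI. Up to 4 members per list with the smallest adjusted p were also taken, and others were picked after their values were seen. Members, classes and the 31 lists were chosen with earlier results of these data known. RefSeq promoters (GRCm38.p6) matched 10897 tested genes. Alternatives were other pseudocounts, filters, scalings, limma settings, a replicate block and each library left out. Figures used matplotlib 3.10.9. Some genes are not reported here.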

Additional observations from a re-analysis of the deposited data

How the results depend on the processing

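The sizes of the classes depend on their cut-offs. A test against a 1.5-fold change left 1700 genes for KI_Chd7del against WT (1584 of them at least 2-fold), 865 for KI_Chd7del against KI, 3239 for KI against WT, 1222 kept, 42 new, 1 opposite and 246 returned. A pseudocount of 16 gave 104 new and 4 opposite genes. A mean of at least 50 gave 92 new, 7 opposite and 464 returned genes. Opposite genes numbered 25 after quantile normalisation, 23 with sample weights and from 9 to 20 when a library was left out. Scaling to the column total turned the median of nuclear oxidative phosphorylation genes to 0.057, Cbfb to 0.18 and Xbp1 to 0.036. Upper-quartile factors put 59.4% of calls higher.

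Same-numbered KI_Chd7del and WT libraries deviated from their group means with correlations of 0.154, -0.00647 and 0.0253. Different-numbered ones had -0.113 to 0.132. No pairing by number was seen, though 3 libraries per group cannot exclude one. With the replicate number as a block, 7411 genes differed between KI_Chd7del and WT (2536 at least 2-fold), 5952 between KI_Chd7del and KI and 9121 between KI and WT, with 1883 kept, 159 new, 17 opposite and 685 returned genes. Precision is limited by 3 libraries per group and, for low values, by counting.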
